A study of Mus musculus with 20 samples.

Results

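The response of the female liver to perfluorooctanoic acid (PFOA, a persistent fluorinated surfactant) was examined in mice that express human PPARα, written hPPARa. The libraries were chosen by their titles: 2 female livers on PFOA were set against 3 female livers on vehicle, 5 of the 20 samples of the series. From weaning, for 6 to 7 weeks, the vehicle females drank NERL water with 0.5% sucrose, and the PFOA females drank the same water with PFOA at 8 µM (the unit is written µm in the sources used here and was read as micromolar). Both groups ate a custom diet with 33.5% of its energy from fat, 51.8% from carbohydrate and 14.7% from protein. All 5 samples are labelled as human PPARα, and the sources used here give neither the promoter that drives the transgene nor the background strain. RNA came from bulk liver with an RNA integrity number above 7. The hPPARa males, 2 on vehicle and 3 on PFOA under the same water and diet, entered the same fit and served to test whether a response differed between the sexes.

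PPARα is a nuclear receptor that binds fatty acids and their mimics, pairs with the retinoid X receptor and switches on genes of fatty acid oxidation in peroxisomes, mitochondria and microsomes. In rodent liver its activation also enlarges the peroxisome population and alters lipid storage. CAR and PXR are related receptors that sense drugs and other foreign compounds and induce cytochrome P450 enzymes. Sex differences in mouse liver are set largely by the pattern of growth hormone release, which acts through STAT5b.

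The 5 female libraries held 16167591 to 17815566 counts each, and 21605 to 24481 genes had a count. The liver label was matched by its defining genes: Alb (albumin) stood at 74379 to 143399 CPM (counts scaled to a common library size, computed here) and all 22 hepatocyte markers passed the filter on low counts. Xist, which is made from the silenced X, was at 448 to 866 CPM in the females and at most 4.36 CPM in the males. The Y-linked Ddx3y was at 0 to 0.408 CPM in the females and 46.9 to 54.7 CPM in the males. Even at these female levels near 0 it was called lower with PFOA (log2 fold change −4.97, adjusted p = 0.0464 by edgeR). That call held in 6 of 16 alternatives and is not read as a response, so calls at such levels need care. Counts for Ppara were made on the mouse genome, and whether they came from the mouse or the human gene was not tested. Ppara had 24.9, 19.8 and 16.7 CPM in the vehicle livers and 28.4 and 26.7 CPM in the PFOA livers. Its difference did not pass the test (log2 fold change 0.43 ± 0.23, adjusted p = 0.217, and 0.0386 with no filter on low counts), and the human transcript was not analysed separately here. Nothing in the labels ties each sample to its own mouse. The p-values therefore reflect the spread among these libraries alone, and that spread may be technical.

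PFOA changed a large share of the female liver transcriptome. Of 14400 genes tested, 1511 were higher (10.5%) and 1133 lower (7.87%) at an adjusted p under 0.05 (quasi-likelihood test of edgeR, Benjamini-Hochberg adjustment). Among these, 545 rose and 494 fell at least 2-fold, and 78 rose and 36 fell at least 8-fold. The median log2 fold change of all genes tested was −0.02. The 2 PFOA livers lay above all 3 vehicle livers for 27.2% of the genes tested and below all of them for 25.9%, which is the background for each statement below that the groups did not overlap. The sum of 2644 calls was 796 without PFOA replicate 1 (561 higher and 235 lower), 808 without PFOA replicate 2 (573 and 235) and 1739 without vehicle replicate 1 (1029 and 710). In the first 2 of these fits the lone PFOA library is assumed to vary like the other groups. Where a female call of a gene named below was lost under an alternative, its adjusted p there or the loss itself is given.

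**Figure D1:**
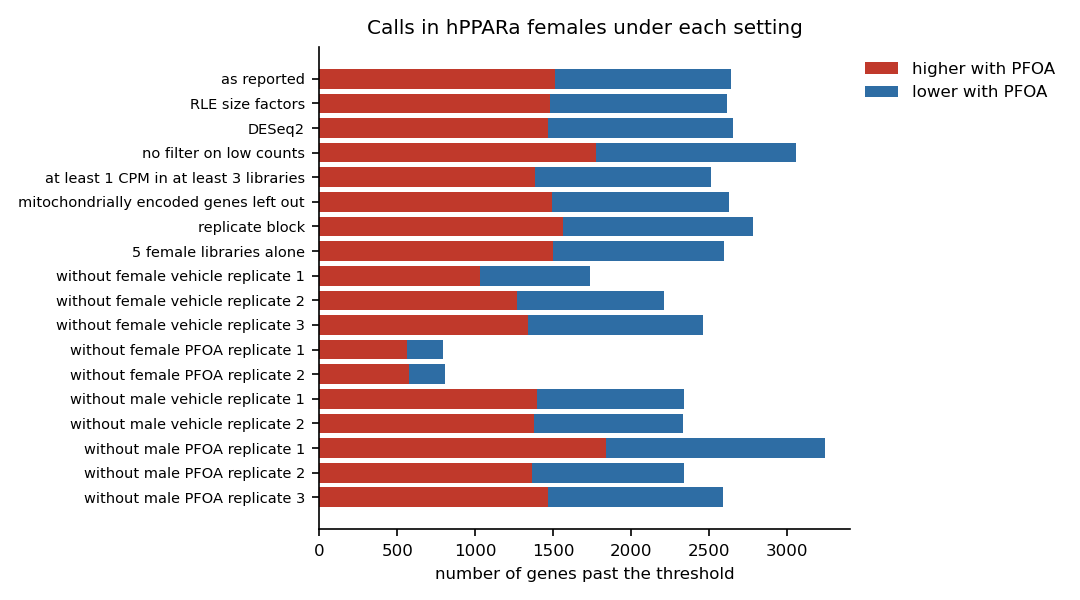
Number of genes called higher (red) and lower (blue) with PFOA in hPPARa females, as reported and under each alternative setting. The bars run from 796 genes without female PFOA replicate 1 to 3242 without male PFOA replicate 1.

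**Figure D2:**
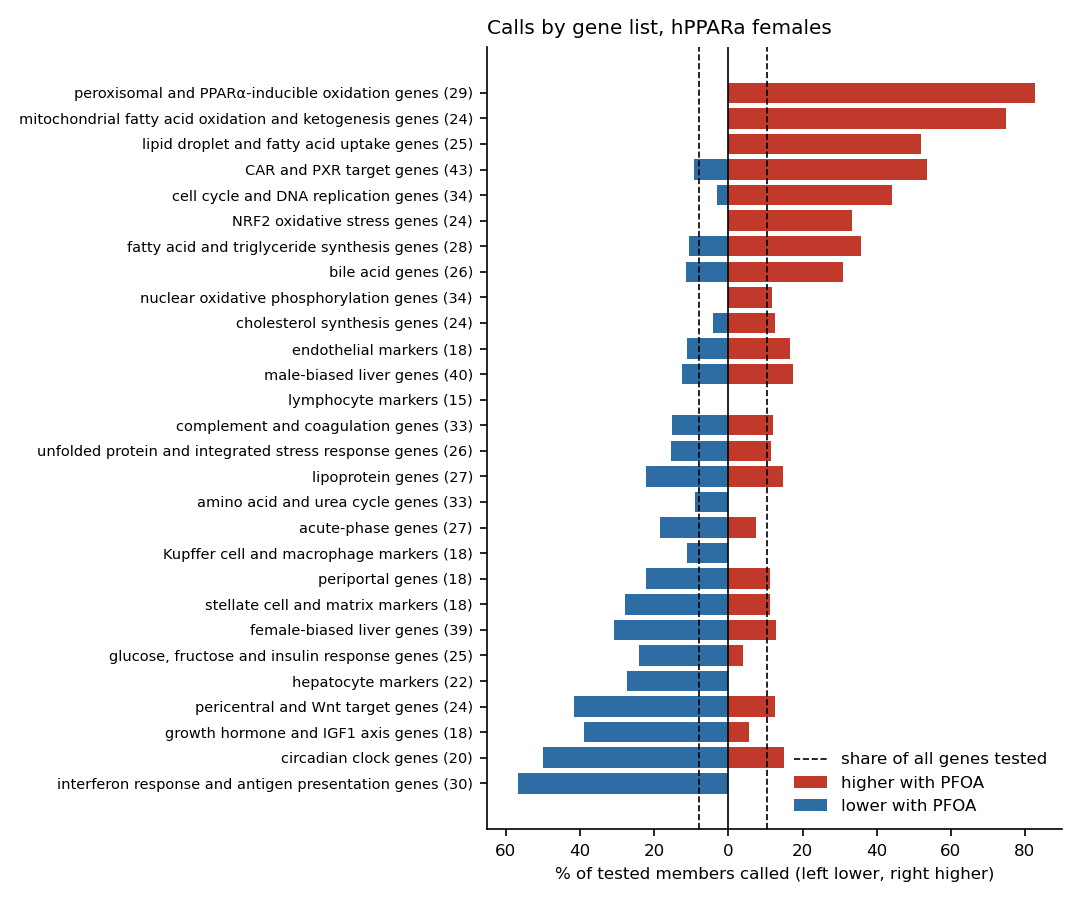
Share of the tested members of each gene list called higher (right, red) or lower (left, blue) with PFOA in hPPARa females, in percent, with the number tested in brackets and dashed lines at the shares of all genes tested (10.5% and 7.87%). Lists with at least 15 tested members are drawn; 82.8% of the peroxisomal list was higher and 56.7% of the interferon list was lower.

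The peroxisomal and PPARα-inducible oxidation genes rose together. Of 30 listed genes 29 were tested, and 24 rose and 0 fell, with a median log2 fold change of 1.31. The ω-hydroxylases, which oxidise the far end of fatty acids and are the classical readout of PPARα in rodents, had the largest fold changes of the list. Cyp4a14 had 58.8, 78.5 and 105 CPM in the vehicle livers and 9909 and 8240 CPM in the PFOA livers, a 113-fold rise (log2 fold change 6.81 ± 0.40, adjusted p = 8.46e-06). Cyp4a10 had 47.6, 63.0 and 85.9 CPM in the vehicle livers and 4811 and 4004 CPM in the PFOA livers (6.07 ± 0.50, adjusted p = 0.000227). Cyp4a31 had 1.51, 1.14 and 1.84 CPM in the vehicle livers and 61.0 and 51.3 CPM in the PFOA livers (5.23 ± 0.30, adjusted p = 2.43e-06). In each of these genes the groups were far apart and PFOA replicate 1 was the higher of the PFOA pair. The Cyp4a genes are near-identical copies, so reads could have been shared or lost between them in the authors' counting.

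The enzymes of the peroxisomal β-oxidation spiral rose with little spread. Ehhadh, the bifunctional enzyme of the middle steps, had 209.8, 214 and 273 CPM in the vehicle livers and 4059 and 3212 CPM in the PFOA livers, a 15.7-fold rise (log2 fold change 3.97 ± 0.17, adjusted p = 4.31e-08). Acaa1b, a thiolase that releases acetyl-CoA, had 166, 180.3 and 157 CPM in the vehicle livers and 1972 and 1764 CPM in the PFOA livers (3.48 ± 0.18, adjusted p = 1.44e-07). The vehicle livers lay within a narrow range for both enzymes. Aldh3a2, a fatty aldehyde dehydrogenase, had 206, 266 and 230.3 CPM in the vehicle livers and 1071 and 961 CPM in the PFOA livers (2.12 ± 0.15, adjusted p = 2.43e-06). The 5 members that did not pass were Abcd2, Phyh, Hacl1, Acot3 and Acot4, with log2 fold changes from −0.03 to 0.59. Phyh and Hacl1, the α-oxidation enzymes of branched fatty acids, were at 0.20 ± 0.13 and 0.13 ± 0.18. Acot3 and Acot4, peroxisomal thioesterases with close paralogs, were at 0.02 ± 0.67 and −0.03 ± 0.29.

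**Figure D3:**
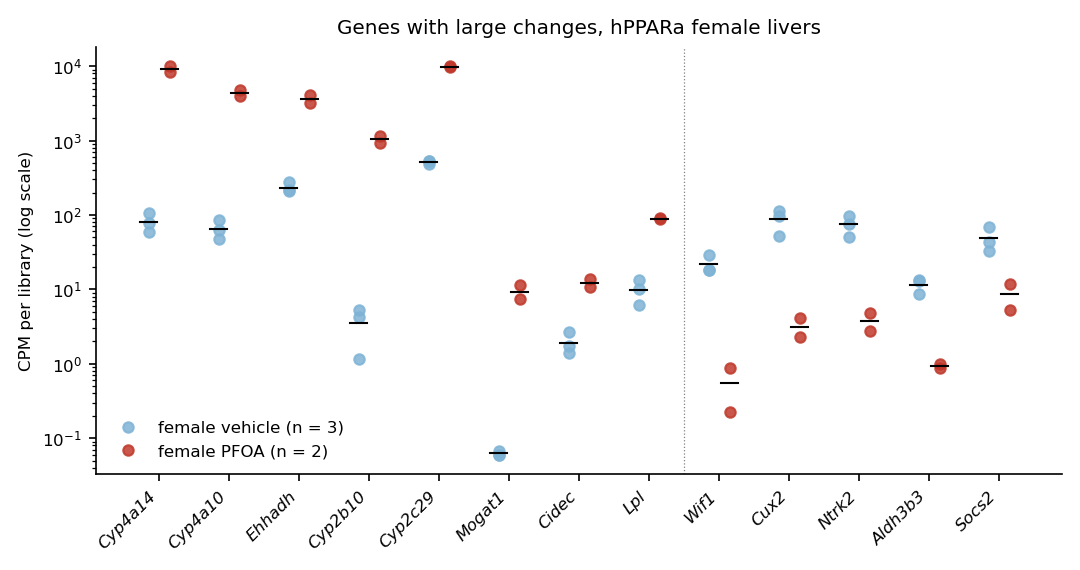
CPM in each hPPARa female library on a log axis, 3 on vehicle (blue) and 2 on PFOA (red), with group means as black bars; genes that rose stand left of the dotted line and genes that fell right of it. In all 13 genes drawn the PFOA and vehicle livers did not overlap.

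Mitochondrial fatty acid oxidation and ketogenesis genes also rose, by smaller factors. Of 25 listed, 24 were tested, and 18 rose and 0 fell, with a median of 0.995 on the log2 scale. Eci1, which isomerises unsaturated acyl-CoA, had 85.9, 74.8 and 113 CPM in the vehicle livers and 326 and 295 CPM in the PFOA livers (log2 fold change 1.77 ± 0.18, adjusted p = 4.03e-05). Acadvl, the very-long-chain acyl-CoA dehydrogenase, had 65.4, 82.3 and 80.7 CPM in the vehicle livers and 231 and 223 CPM in the PFOA livers (1.58 ± 0.19, adjusted p = 0.00019). The medium-chain enzyme Acadm had 284, 273 and 382 CPM in the vehicle livers and 781 and 736 CPM in the PFOA livers (1.28 ± 0.16, adjusted p = 0.000227). Carnitine handling rose at 3 points of the route into the mitochondrion. Slc22a5, the carnitine importer of the cell membrane, had 16.8, 16.1 and 15.7 CPM in the vehicle livers and 45.7 and 35.8 CPM in the PFOA livers (1.33 ± 0.15). Slc25a20, the carnitine-acylcarnitine exchanger, had 85.8, 72.8 and 88.1 CPM in the vehicle livers and 174 and 163 CPM in the PFOA livers (1.03 ± 0.13), and Cpt2, the inner-membrane transferase, had 118, 120.0 and 129 CPM in the vehicle livers and 257 and 254 CPM in the PFOA livers (1.06 ± 0.13). Their adjusted p-values were 9.43e-05, 0.000194 and 0.000227. Pdk4, a kinase that inhibits pyruvate dehydrogenase, was less settled. It had 3.44, 4.64 and 4.90 CPM in the vehicle livers and 14.5 and 17.9 CPM in the PFOA livers (1.91 ± 0.49, adjusted p = 0.0336). That call was lost in 10 of the 17 alternatives, with the replicate block (adjusted p = 0.0807), no filter on low counts (0.104) and leaving out PFOA replicate 1 (adjusted p = 0.116), PFOA replicate 2 (0.169), vehicle replicate 1 (0.103), 2 (0.0737) or 3 (0.0666), male vehicle replicate 1 (0.0566) or 2 (0.056) or male PFOA replicate 3 (0.0504).

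Genes of lipid droplets and fatty acid uptake followed: 25 of 28 listed were tested, 13 of these rose and 0 fell, and the median log2 fold change was 0.58. The count was 8 without PFOA replicate 1 and 7 without PFOA replicate 2. Cd36, a fatty acid translocase of the cell surface, had 30.7, 36.7 and 45.4 CPM in the vehicle livers and 166 and 156 CPM in the PFOA livers (log2 fold change 2.10 ± 0.16, adjusted p = 4.9e-06). Plin2, the main droplet coat protein of the hepatocyte, had 207, 129 and 164 CPM in the vehicle livers and 566 and 549.6 CPM in the PFOA livers (1.74 ± 0.21, adjusted p = 0.000238). Cidec, which fuses droplets and is low in lean liver, had 1.75, 1.39 and 2.65 CPM in the vehicle livers and 13.7 and 10.7 CPM in the PFOA livers (2.67 ± 0.35, adjusted p = 0.00088). Each lay higher in both PFOA livers than in any vehicle liver. The droplet-forming FITM proteins were both higher. Fitm2 had 20.5, 23.3 and 20.9 CPM in the vehicle livers and 63.2 and 57.0 CPM in the PFOA livers (1.48 ± 0.15, adjusted p = 4.81e-05), and Fitm1, mainly a muscle form, had 2 counts over the vehicle livers and 185 over the PFOA livers. That is a ratio of 123 (exact 95% interval for counts 33.6 to 1020, counting error only; adjusted p = 2.18e-05). Acsl5, an acyl-CoA synthetase, had 173, 206 and 247 CPM in the vehicle livers and 534 and 531 CPM in the PFOA livers (1.35 ± 0.15).

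Fatty acid and triglyceride synthesis genes split. Of 29 listed, 28 were tested, and 10 rose and 3 fell, with a median log2 fold change of 0.32 (5 lower with DESeq2, 5 and 0 without PFOA replicate 1, 6 and 1 without PFOA replicate 2, and 1 and 0 lower without vehicle replicates 1 and 2). The 10 and 3 were 35.7% and 10.7% of those tested, beside 10.5% and 7.87% of all genes tested. Mogat1, a monoacylglycerol acyltransferase, had 3 counts over the vehicle livers and 337 over the PFOA livers, a ratio of 149 (exact 95% interval 50.7 to 728, adjusted p = 1.44e-07). Elovl5, an elongase of polyunsaturated fatty acids, had 654, 539 and 838 CPM in the vehicle livers and 1335 and 1504 CPM in the PFOA livers (log2 fold change 1.07 ± 0.17, adjusted p = 0.00135). Acacb, the acetyl-CoA carboxylase whose product restrains entry of fatty acids into mitochondria, had 69.4, 76.6 and 70.6 CPM in the vehicle livers and 152 and 154 CPM in the PFOA livers (1.08 ± 0.18, adjusted p = 0.0019). The core of de novo synthesis did not pass the test. Fasn, fatty acid synthase, had 221, 248 and 270.1 CPM in the vehicle livers and 275 and 296 CPM in the PFOA livers (0.21 ± 0.14, adjusted p = 0.323), and the carboxylase Acaca and the regulator Srebf1 had log2 fold changes of −0.16 ± 0.13 and −0.08 ± 0.19.

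Lipoprotein genes changed in both directions, 4 up and 6 down of 27 (2 and 1 without PFOA replicate 1, 2 and 2 without PFOA replicate 2), with a median of −0.09 on the log2 scale. Lpl, lipoprotein lipase, a gene that adult liver normally keeps low, had 9.97, 13.6 and 6.19 CPM in the vehicle livers and 90.5 and 87.4 CPM in the PFOA livers, an 8.94-fold rise (3.16 ± 0.32, adjusted p = 0.000363). Angptl4, a secreted inhibitor of that lipase, had 104, 105 and 137 CPM in the vehicle livers and 203 and 217 CPM in the PFOA livers (0.87 ± 0.14, adjusted p = 0.00116). The apolipoprotein Apoc3, which slows triglyceride clearance, had 3086, 3299 and 3825 CPM in the vehicle livers and 1861 and 1887 CPM in the PFOA livers (−0.86 ± 0.16, adjusted p = 0.00328, and 0.0513 without PFOA replicate 1). Of 24 cholesterol synthesis genes 3 rose (12.5%) and 1 fell (4.17%), with a median of 0.02. Over all genes tested the shares were 10.5% and 7.87%. The higher count was 8 without vehicle replicate 3 and 1 without either PFOA replicate, and the lower count was 0 without PFOA replicate 2, 2 with DESeq2 and 3 with the replicate block. Pmvk, a kinase of the mevalonate route, had 13.6, 16.9 and 25.2 CPM in the vehicle livers and 45.1 and 48.8 CPM in the PFOA livers (1.34 ± 0.20, adjusted p = 0.00073).

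Of 44 CAR and PXR target genes 43 were tested, and 23 rose and 4 fell, with a median log2 fold change of 1.11 (the lower count was 0 without either PFOA replicate and 2 in the female libraries alone). Cyp2b10, the classical CAR target, had 1.148, 4.22 and 5.31 CPM in the vehicle livers and 1148 and 929.6 CPM in the PFOA livers, a 294-fold rise (8.20 ± 0.47, adjusted p = 2.18e-05). Cyp2c55 had 0.242, 0.361 and 0.476 CPM in the vehicle livers and 107 and 91.4 CPM in the PFOA livers (8.09 ± 0.42, adjusted p = 3.18e-06). Cyp3a11, the main PXR target, had 1684, 2095 and 1719 CPM in the vehicle livers and 8056 and 7252 CPM in the PFOA livers (2.06 ± 0.14, adjusted p = 2.32e-06). Vehicle levels of Cyp2b10 differed among the 3 livers, and both PFOA livers lay far above them. Hydrolases rose beside the P450s. Ces2a, a carboxylesterase, had 125, 143 and 102 CPM in the vehicle livers and 693 and 572 CPM in the PFOA livers (2.36 ± 0.17), and Ephx1, microsomal epoxide hydrolase, had 229.7, 184 and 239.6 CPM in the vehicle livers and 867 and 826 CPM in the PFOA livers (1.96 ± 0.15). Cyp2c65 had 1 count over the vehicle livers and 246 over the PFOA livers (ratio 327, exact 95% interval 58.2 to 13000). The receptors themselves went opposite ways, with Nr1i2 (PXR) at 61.1, 71.7 and 67.4 CPM on vehicle and 109.6 and 96.8 CPM on PFOA and Nr1i3 (CAR) at 223, 186 and 157 and 108 and 116 CPM. Their log2 fold changes were 0.63 ± 0.13 (adjusted p = 0.00554) and −0.76 ± 0.22 (adjusted p = 0.0364); both were named after their values were seen and were not followed through the alternatives. Members of the Cyp2b, Cyp2c and Cyp3a families are close copies, and their single values carry the same uncertainty as the Cyp4a genes.

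The 4 CAR and PXR list members that fell (9.3% of those tested, beside 7.87% of all genes) included Cyp3a16, a female-biased P450 of the Cyp3a cluster. Cyp3a16 had 36.5, 101.4 and 214 CPM in the vehicle livers and 2.70 and 5.81 CPM in the PFOA livers (log2 fold change −4.78 ± 0.86, adjusted p = 0.012). Its vehicle values were spread nearly over an order of magnitude, and the call was lost without PFOA replicate 1 (adjusted p = 0.109), without PFOA replicate 2 (0.079) and in the fit of the 5 female libraries alone (0.0658). The female-biased Cyp2b9 and Cyp2b13 did not pass, at 199.9, 481 and 222 CPM in the vehicle livers and 526 and 288 CPM in the PFOA livers for Cyp2b9 (0.44 ± 0.51, adjusted p = 0.6). Cyp2b13 had 120.1, 279 and 118 CPM in the vehicle livers and 233 and 152 CPM in the PFOA livers (0.16 ± 0.38, adjusted p = 0.809), and for both genes the groups overlapped.

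Of 28 bile acid genes 26 were tested, and 8 rose and 3 fell, with a median log2 fold change of 0.10 (5 higher without either PFOA replicate, 0 lower without PFOA replicate 1 and 5 lower in the female libraries alone). The 8 and 3 were 30.8% and 11.5% of those tested, beside 10.5% and 7.87% of all genes tested. Export pumps of the blood-facing membrane led. Abcc3 had 143, 64.7 and 65.4 CPM in the vehicle livers and 811 and 749 CPM in the PFOA livers (log2 fold change 3.10 ± 0.41, adjusted p = 0.00215), and Abcc4 had 1.99, 1.81 and 2.11 CPM in the vehicle livers and 15.2 and 12.2 CPM in the PFOA livers (2.80 ± 0.22, adjusted p = 5.87e-06). Abcb4, the canalicular phospholipid flippase, had 153, 168 and 172 CPM in the vehicle livers and 279 and 288 CPM in the PFOA livers (0.79 ± 0.12, adjusted p = 0.0011). Peroxisomal side-chain enzymes rose too, Amacr to 179 and 182 CPM from 93.1, 106 and 112 CPM (0.80 ± 0.13) and Acox2 to 419 and 426 CPM from 198, 209 and 271 CPM (0.90 ± 0.15). Cyp7a1, which sets the pace of bile acid synthesis, had 520.4, 602 and 656 CPM in the vehicle livers and 130.4 and 126 CPM in the PFOA livers. The female groups did not overlap, with a log2 fold change of −2.21 ± 1.05 and an adjusted p of 0.198 in the fit that shares its spread with the males. It passed in the fit of the 5 female libraries alone (adjusted p = 4.35e-05) and without male PFOA replicate 3 (0.00869).

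Antioxidant and stress genes gave smaller changes. Of 26 NRF2 target genes 24 were tested, and 8 rose and 0 fell, with a median of 0.34 (5 higher without vehicle replicate 1 or without either PFOA replicate). Nqo1, a quinone reductase, had 6.83, 8.31 and 6.80 CPM in the vehicle livers and 19.0 and 18.8 CPM in the PFOA livers (log2 fold change 1.37 ± 0.17, adjusted p = 0.00019). Srxn1, which repairs peroxiredoxins, had 21.0, 22.3 and 25.5 CPM in the vehicle livers and 52.2 and 48.9 CPM in the PFOA livers (1.14 ± 0.13, adjusted p = 0.000108), and Gclc, which starts glutathione synthesis, had 162, 165 and 163 CPM in the vehicle livers and 320.3 and 412 CPM in the PFOA livers (1.16 ± 0.16, adjusted p = 0.000535). Both PFOA livers lay above the range of the vehicle livers for all 3. Of 28 unfolded protein and integrated stress response genes 26 were tested, and 3 rose (11.5%) and 4 fell (15.4%). Over all genes tested the shares were 10.5% and 7.87%. The 4 were 0 without either PFOA replicate and 2 without vehicle replicate 3 or with the replicate block, and the 3 were 6 in the female libraries alone and 5 with no filter. Trib3, a pseudokinase induced by that response, had 8.52, 14.6 and 14.8 CPM in the vehicle livers and 48.2 and 33.5 CPM in the PFOA livers (1.70 ± 0.22, adjusted p = 0.000465). Trib3 also stands on the NRF2 list, where it was the largest of the 8 rises. Asns and Hspa1b rose as well (2.04 and 1.45), with calls lost without PFOA replicates 1 and 2 respectively. Members that fell included Chac1, Sdf2l1 and Calr (−2.58, −1.04 and −0.49). Each of these 3 calls was lost without either PFOA replicate, and that of Calr held in 10 of 17 alternatives.

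Cell cycle genes rose. Of 36 listed, 34 were tested, and 15 rose and 1 fell, with a median log2 fold change of 0.85. The 15 became 7 without PFOA replicate 2, and the 1 became 0 without PFOA replicate 1. Genes of mitosis were among those that rose. Top2a, a topoisomerase of dividing cells, had 2.23, 2.47 and 1.84 CPM in the vehicle livers and 6.95 and 11.7 CPM in the PFOA livers (2.09 ± 0.26, adjusted p = 0.000243). Cdk1, the mitotic kinase, had 1.51, 1.81 and 1.63 CPM in the vehicle livers and 4.80 and 7.94 CPM in the PFOA livers (1.94 ± 0.29, adjusted p = 0.000774), and Ccnb2, its cyclin partner, had 1.33, 1.02 and 0.612 CPM in the vehicle livers and 4.08 and 7.49 CPM in the PFOA livers (2.53 ± 0.41, adjusted p = 0.00145). PFOA replicate 2 was the higher of the PFOA pair in each. Among listed genes of DNA replication that did not pass, Mcm3 had a log2 fold change of 0.55 ± 0.19, Mcm7 of 0.49 ± 0.17 and Pcna of 0.15 ± 0.24. Tk1, a nucleotide salvage kinase, went the other way with 47.7, 44.4 and 36.8 CPM in the vehicle livers and 22.8 and 25.3 CPM in the PFOA livers (−0.84 ± 0.17, adjusted p = 0.00462, and 0.0731 without PFOA replicate 1). In bulk tissue a change in the number of cells of a type and a change in RNA per cell cannot be told apart.

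Pericentral and Wnt target genes fell in 10 of 24 cases and rose in 3, with a median of −0.51, and neither count moved by more than 1.5 times without any 1 female library. The summed level of the list went the other way, at 13590 to 14541 CPM on vehicle and 16417 to 16911 CPM on PFOA. These genes mark hepatocytes around the central vein, where Wnt signals keep glutamine synthesis and ω-oxidation in place. Wif1, a secreted Wnt inhibitor, had 18.2, 29.0 and 18.2 CPM in the vehicle livers and 0.883 and 0.224 CPM in the PFOA livers, a 38.8-fold fall (log2 fold change −5.28 ± 0.41, adjusted p = 1.09e-05). Glul, glutamine synthetase, had 1196, 1185 and 1426 CPM in the vehicle livers and 555 and 538 CPM in the PFOA livers (−1.21 ± 0.18, adjusted p = 0.000789). Negative feedback genes of the pathway fell as well. Notum, an enzyme that inactivates Wnt ligands, had 80.9, 87.7 and 63.0 CPM in the vehicle livers and 32.0 and 35.6 CPM in the PFOA livers (−1.19 ± 0.15, adjusted p = 0.00019), and Nkd1, an intracellular antagonist, had 12.6, 14.4 and 13.5 CPM in the vehicle livers and 5.96 and 6.09 CPM in the PFOA livers (−1.16 ± 0.18, adjusted p = 0.000857). Slc13a3, a dicarboxylate transporter, had 65.6, 53.6 and 79.1 CPM in the vehicle livers and 17.8 and 19.2 CPM in the PFOA livers (−1.84 ± 0.21, adjusted p = 0.000166). Other members did not follow. Axin2 had a log2 fold change of −0.69 ± 0.32 (adjusted p = 0.161), Tbx3 of −0.10 ± 0.25 and Cyp2e1 of 0.27 ± 0.18. Aldh1a1, a retinal dehydrogenase that is also a CAR and PXR target, rose from 386, 586 and 542 CPM to 1718 and 1687 CPM (1.75 ± 0.18, adjusted p = 5.74e-05). Of 18 periportal genes 2 rose (11.1%) and 4 fell (22.2%), beside 10.5% and 7.87% of all genes tested. Without PFOA replicate 1 both counts were 0, without PFOA replicate 2 they were 0 and 1, and the higher count was 0, 1 and 1 without vehicle replicates 1, 2 and 3.

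Genes of the growth hormone and IGF1 axis fell. Of 19 listed, 18 were tested, and 7 fell and 1 rose, with a median log2 fold change of −0.97. The 7 became 4 without PFOA replicate 2 and 11 with DESeq2, and the 1 became 0 without either PFOA replicate, without vehicle replicate 2 or 3 and with the replicate block. Socs2, a feedback inhibitor that follows growth hormone signalling, had 43.6, 32.5 and 69.6 CPM in the vehicle livers and 5.35 and 11.7 CPM in the PFOA livers (−2.50 ± 0.41, adjusted p = 0.00529). Igfals, which carries IGF1 in blood, had 174, 129 and 189 CPM in the vehicle livers and 52.2 and 57.9 CPM in the PFOA livers (−1.57 ± 0.24, adjusted p = 0.00129). Igf1 itself had 995, 607 and 1131 CPM in the vehicle livers and 394 and 406 CPM in the PFOA livers (−1.19 ± 0.23, adjusted p = 0.00418, and 0.0576 without PFOA replicate 1). All 3 were lower in both PFOA livers than in any vehicle liver. Esr1, the oestrogen receptor, had 51.5, 33.5 and 38.8 CPM in the vehicle livers and 11.9 and 8.33 CPM in the PFOA livers (−2.03 ± 0.34, adjusted p = 0.004, and 0.057 without PFOA replicate 2). The growth hormone receptor Ghr and the transducer Stat5b did not pass (−0.41 ± 0.17 and 0.17 ± 0.14). Cux2, a repressor that female liver expresses and male liver hardly does, had the largest fold change of the list. Cux2 had 97.0, 113 and 52.0 CPM in the vehicle livers and 2.26 and 4.08 CPM in the PFOA livers, a 27.5-fold fall (−4.78 ± 0.49, adjusted p = 0.000602), while the hPPARa males had 3.07 and 1.27 CPM on vehicle and 0.782, 1.35 and 1.43 CPM on PFOA.

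Of 41 female-biased liver genes 39 were tested, and 12 fell and 5 rose, with a median log2 fold change of −0.88. The 12 became 5 without either PFOA replicate. Cyp2c69, a female-biased P450, had 107, 53.5 and 191 CPM in the vehicle livers and 9.10 and 9.17 CPM in the PFOA livers (−3.68 ± 0.55, adjusted p = 0.00491). That call was lost without PFOA replicate 1 (adjusted p = 0.0616) and without replicate 2 (0.0607). Members that rose included Cyp4a10, Cd36 and Lpl, described above, and A1bg, a secreted protein, which had 5.32, 1.26 and 2.86 CPM in the vehicle livers and 25.3 and 23.5 CPM in the PFOA livers (2.95 ± 0.38, adjusted p = 0.000627). Of 43 male-biased genes 40 were tested, and 7 rose (17.5%) and 5 fell (12.5%), with a median of −0.15. Over all genes tested the shares were 10.5% and 7.87%. The 7 became 4 without PFOA replicate 1 or vehicle replicate 1, and the 5 became 1 and 0 without PFOA replicates 1 and 2 and 9 with DESeq2 or in the female libraries alone. Cyp2d9, a male-biased steroid hydroxylase, had 186, 165 and 79.9 CPM in the vehicle livers and 535 and 530.1 CPM in the PFOA livers (1.89 ± 0.27, adjusted p = 0.0011), and the hPPARa males had 1830 and 1616 CPM on vehicle and 2048, 2149 and 2358 CPM on PFOA. Mup3, a urinary protein with near-identical copies, fell from 2673, 1388 and 1995 CPM to 679 and 549 CPM (−1.72 ± 0.30, adjusted p = 0.00347, and 0.0513 without PFOA replicate 2).

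Whether the female response differed from the male response was tested with the PFOA by sex term. Of the 14400 genes, 15 passed (0.104%), 9 with a higher female response (0.0625%) and 6 with a lower one (0.0417%), and 1477 had an unadjusted p under 0.05. In the males 763 genes were higher (5.3%) and 418 lower (2.9%). Of the 2644 genes called in females, 2387 (90.3%) had an estimate of the same sign in males, against 69.7% of all genes tested. Counts from the sex term ranged from 4 without female PFOA replicate 1 or 2 to 27 without male PFOA replicate 1, and other settings of the filter and the tool gave more, as listed in the closing section.

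Cyp2c29, an arachidonic acid epoxygenase and CAR target, and its neighbour Cyp2c67 held in every alternative. In females Cyp2c29 had 536, 524 and 477 CPM in the vehicle livers and 9894 and 9756 CPM in the PFOA livers, a 19.2-fold rise, and in males 1700 and 2589 CPM on vehicle and 6880, 7170 and 8193 CPM on PFOA. The female response exceeded the male one by 2.47 ± 0.24 on the log2 scale (adjusted p = 0.00086), from a lower vehicle level to a higher PFOA level. Cyp2c67 had 103, 84.6 and 103 CPM in the vehicle livers and 190.4 and 177 CPM in the PFOA livers in females and 450.2 and 591 CPM on vehicle and 202, 236 and 218 CPM on PFOA in males. It rose in one sex and fell in the other (log2 fold changes 0.92 ± 0.15 and −1.25 ± 0.15, difference 2.18 ± 0.21, adjusted p = 0.00086), and the 2 PFOA groups ended close to each other.

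In 3 genes the female PFOA level lay near a male level that did not pass the test for PFOA. Alas2, the erythroid form of the first enzyme of haem synthesis, had 23.9, 19.0 and 18.6 CPM in the vehicle livers and 131 and 91.7 CPM in the PFOA livers in females and 182 and 169.9 CPM on vehicle and 145, 222 and 193 CPM on PFOA in males (difference 2.35 ± 0.27, adjusted p = 0.00483, and 0.0515 with the replicate block). Haemoglobin genes did not move with it: Hba-a1 had a log2 fold change of 0.05 ± 0.59 and Hbb-bs of −0.26 ± 0.47 in females. Arsa, a lysosomal sulfatase, had 9.66, 8.97 and 8.503 CPM in the vehicle livers and 44.0 and 33.2 CPM in the PFOA livers in females and 41.1 and 44.9 CPM on vehicle and 52.3, 29.5 and 44.2 CPM on PFOA in males (difference 2.12 ± 0.29, adjusted p = 0.0201). F2r, a thrombin receptor, had 10.4, 12.6 and 11.97 CPM in the vehicle livers and 28.4 and 28.2 CPM in the PFOA livers in females and 37.3 and 45.2 CPM on vehicle and 38.5, 41.3 and 33.4 CPM on PFOA in males (difference 1.40 ± 0.19, adjusted p = 0.0201). Without a single library the adjusted p of Arsa rose to at most 0.103 (male vehicle replicate 2), and passed 0.05 also without female PFOA replicate 1 (0.0944), female vehicle replicate 1 (0.0556) and male vehicle replicate 1 (0.0503). For F2r it was 0.0944, 0.0953 and 0.103 without female PFOA replicates 1 and 2 and male vehicle replicate 2.

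Cyp4a12a, a male-biased ω-hydroxylase, differed widely between the sexes. It had 0.906, 0.0602 and 2.11 CPM in the vehicle livers and 354 and 246 CPM in the PFOA livers in females, a 299-fold rise (log2 fold change 8.23 ± 0.60, adjusted p = 0.000164), and 366 and 335 CPM on vehicle and 618, 591 and 510.3 CPM on PFOA in males. The difference of 7.52 ± 0.72 (adjusted p = 0.0201) was lost in 8 of 16 alternatives, the replicate block (0.1) and 7 that left out 1 library: female vehicle replicate 1 (0.0649), female PFOA replicate 1 (0.0944) or 2 (0.0953), male vehicle replicate 1 (0.0537) or 2 (0.0693) and male PFOA replicate 1 (0.0516) or 3 (0.0502). Its near copy Cyp4a12b had 0.242, 0.0602 and 1.70 CPM in the vehicle livers and 54.4 and 19.96 CPM in the PFOA livers in females and rose in both sexes (5.86 ± 0.78 and 4.50 ± 0.69, adjusted p of the difference = 0.686). Slc22a27, a female-biased organic anion transporter, had 23.0, 19.7 and 30.4 CPM in the vehicle livers and 4.63 and 6.37 CPM in the PFOA livers in females and 0.0641 and 0.333 CPM on vehicle and 2.35, 0.921 and 1.19 CPM on PFOA in males. It fell in females and rose in males (−2.14 ± 0.32 and 2.87 ± 0.66, difference −5.02 ± 0.70, adjusted p = 0.0241). That difference was lost without female vehicle replicate 1 (0.061), female PFOA replicate 1 (0.104) or 2 (0.0953) and male vehicle replicate 1 (0.111) or 2 (0.0693), and with the replicate block (0.101). For Cux2 the difference of −3.90 ± 0.79 did not pass (adjusted p = 0.206).

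**Figure D4:**
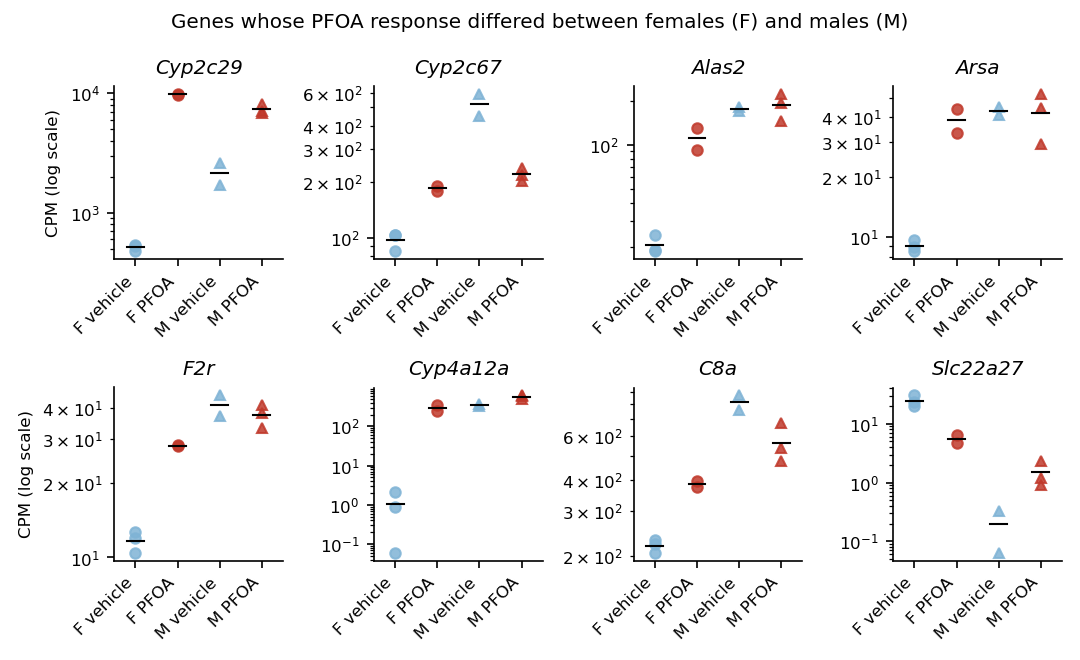
CPM of 8 genes whose PFOA response differed between the sexes, on log axes, in each of the 10 hPPARa libraries (circles female, triangles male, blue vehicle, red PFOA, black bars group means). For Alas2, Arsa and F2r the female PFOA livers lay nearer to the male livers than the female vehicle livers did, and Cyp2c67 and C8a rose in females and fell in males.

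Interferon response and antigen presentation genes fell together. Of 30 tested, 17 fell and 0 rose, with a median log2 fold change of −1.32 in females and −0.45 in males, where no member's response differed from the female one by the sex term. The 17 became 3 without PFOA replicate 1 and 2 without PFOA replicate 2. Psmb8, an immunoproteasome subunit, had 22.3, 33.4 and 19.7 CPM in the vehicle livers and 10.2 and 10.3 CPM in the PFOA livers (−1.29 ± 0.20, adjusted p = 0.00102). Ifi27 had 91.9, 60.4 and 52.1 CPM in the vehicle livers and 27.4 and 25.3 CPM in the PFOA livers (−1.37 ± 0.23, adjusted p = 0.00228). Ifit3 had 38.2, 27.9 and 16.7 CPM in the vehicle livers and 8.16 and 6.48 CPM in the PFOA livers (−1.92 ± 0.34, adjusted p = 0.00423, lost without PFOA replicate 2). The vehicle livers were uneven, with replicate 1 highest in Ifi27, Ifit3, Stat2 and Oas1a and replicate 2 highest in Psmb8 and Gbp7, while both PFOA livers lay below all 3. For Gbp7 the log2 fold change was −1.94 ± 0.37 (adjusted p = 0.00798). It was −1.87 and −1.99 without PFOA replicates 1 and 2, where that call was lost. Stat2, the transducer of type I interferon, had 108, 73.3 and 58.5 CPM in the vehicle livers and 31.0 and 36.3 CPM in the PFOA livers (−1.25 ± 0.26, adjusted p = 0.00853, lost at 0.093 and 0.0546 without PFOA replicates 1 and 2). Oas1a, an RNA sensor, had 5.80, 3.07 and 2.45 CPM in the vehicle livers and 1.16 and 0.95 CPM in the PFOA livers (−1.84 ± 0.40, adjusted p = 0.00791, lost at 0.0617 and 0.0929). Of the MHC class I genes, which were chosen after their values were seen and not followed through the alternatives, H2-K1 had a log2 fold change of −0.45 ± 0.13 (adjusted p = 0.0305) and H2-D1 of −0.48 ± 0.15 (adjusted p = 0.0406). Leukocyte markers stood beside this: the summed level of the 18 lymphocyte markers was 35.0 to 38.2 CPM on vehicle and 35.2 to 37.5 CPM on PFOA with 0 of 15 tested members called, and that of the 20 macrophage markers 512 to 656 CPM and 400 to 489 CPM with 2 of 18 lower. Their part in the interferon genes was not tested.

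A promoter element recurs in the group. The interferon-stimulated response element was searched as TTTCNNTTTC on both strands in the 250 bases before each RefSeq start site (GRCm38.p6, while the counts were made on GRCm39). It occurred in 2.98% of all 32851 windows. A list member was counted if any of its windows matched, so member counts and window shares are unlike units. By that rule 13 of the 24 interferon list members that have a window matched. Of these 8 fell, beside 17 of the 30 tested members. Among windows of genes called lower the element occurred in 5.16%, and among those called higher in 1.88%. Windows of 3 members that fell follow with the matches in capitals, since they carry the letters searched. A match is a description of the sequence and not a measured binding site. Ifit3 lies at chr19:34583279-34583528 on the plus strand with matches starting 156 and 122 bases before the start site, Stat2 at chr10:128270248-128270497 on the plus strand with 1 match at 222 bases, and Oas1a at chr5:120907526-120907775 on the minus strand with 2 overlapping matches at 20 and 14 bases.
Ifit3: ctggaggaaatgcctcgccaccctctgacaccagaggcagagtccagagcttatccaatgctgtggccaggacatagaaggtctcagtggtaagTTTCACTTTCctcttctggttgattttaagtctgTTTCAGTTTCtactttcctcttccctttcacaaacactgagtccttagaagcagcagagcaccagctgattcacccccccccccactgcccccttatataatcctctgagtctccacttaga
Stat2: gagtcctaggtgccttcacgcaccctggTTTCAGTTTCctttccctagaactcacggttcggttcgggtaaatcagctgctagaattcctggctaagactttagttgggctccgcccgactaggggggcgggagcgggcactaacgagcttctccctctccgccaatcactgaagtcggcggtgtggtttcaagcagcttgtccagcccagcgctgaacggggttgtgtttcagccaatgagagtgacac
Oas1a: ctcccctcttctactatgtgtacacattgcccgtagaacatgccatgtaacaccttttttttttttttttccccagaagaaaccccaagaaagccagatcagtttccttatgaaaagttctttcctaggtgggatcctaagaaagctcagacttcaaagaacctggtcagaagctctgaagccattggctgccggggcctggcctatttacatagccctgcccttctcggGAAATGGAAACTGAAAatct

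Core clock genes changed. Of 21 listed, 20 were tested, and 10 fell and 3 rose, with a median log2 fold change of −0.57 (males 0 higher and 3 lower, with no member past the sex term). The calls rested on few libraries, since 0 fell and 1 rose without PFOA replicate 2, 5 fell without PFOA replicate 1 or vehicle replicate 2, and 6 fell without vehicle replicate 1. Arntl (BMAL1), the activator of the clock, had 0.906, 0.843 and 0.884 CPM in the vehicle livers and 3.365 and 6.60 CPM in the PFOA livers (2.49 ± 0.51, adjusted p = 0.00675). The repressors that it drives went the other way. Per1 had 67.8, 77.2 and 51.6 CPM in the vehicle livers and 35.9 and 28.6 CPM in the PFOA livers (−1.03 ± 0.18, adjusted p = 0.0022). Per2 had 58.1, 41.4 and 34.4 CPM in the vehicle livers and 16.9 and 10.2 CPM in the PFOA livers (−1.72 ± 0.34, adjusted p = 0.00907), and Per3 had 103, 75.7 and 71.0 CPM in the vehicle livers and 34.9 and 22.9 CPM in the PFOA livers (−1.53 ± 0.31, adjusted p = 0.00987). In all 4 genes PFOA replicate 2 lay further from the vehicle livers than PFOA replicate 1. Without PFOA replicate 2 their adjusted p-values were 0.0828, 0.0509, 0.0758 and 0.0896. Hlf, a clock output factor that binds D-boxes, had 65.4, 82.7 and 90.2 CPM in the vehicle livers and 45.1 and 46.2 CPM in the PFOA livers (−0.80 ± 0.16, adjusted p = 0.00529, lost at 0.0645 and 0.0579 without PFOA replicates 1 and 2). The sources used here do not give the hour of tissue collection.

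Clock factors read short promoter elements. The E-box CACGTG, bound by BMAL1 with CLOCK, occurred in 6.02% of all windows and in those of 5 of the 17 clock members that have one, of which 3 fell and 1 rose. Its share was 8.13% in windows of genes called lower and 8.91% in those called higher. The D-box TTATGNAA, bound by DBP, TEF and HLF, occurred in 3.07% of windows and in those of 3 members, of which 2 fell. Its shares were 3.44% and 2.08%. Both strands were searched, a member was again counted if any of its windows matched, and the motifs do not contain one another. Per1 (chr11:69098699-69098948, plus strand) holds an E-box 166 bases and a D-box 24 bases before this start site, and Per3 (chr4:151044666-151044915, minus strand) holds 2 D-boxes at 205 and 158 bases. They are shown because both elements, in capitals, stand in genes that fell. A direct repeat of the kind PPARα binds (AGGNCANAGGNCA) occurred in 0.338% of windows (0.669% for genes called lower and 0.335% for genes called higher) and in 0 of the 20 peroxisomal list members that have one, which says only that these letters are not in these 250 bases.
Per1: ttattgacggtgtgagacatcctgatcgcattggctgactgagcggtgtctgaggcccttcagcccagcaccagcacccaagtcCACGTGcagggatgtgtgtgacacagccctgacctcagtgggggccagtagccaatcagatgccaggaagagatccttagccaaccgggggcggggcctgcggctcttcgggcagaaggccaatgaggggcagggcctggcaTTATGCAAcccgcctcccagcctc
Per3: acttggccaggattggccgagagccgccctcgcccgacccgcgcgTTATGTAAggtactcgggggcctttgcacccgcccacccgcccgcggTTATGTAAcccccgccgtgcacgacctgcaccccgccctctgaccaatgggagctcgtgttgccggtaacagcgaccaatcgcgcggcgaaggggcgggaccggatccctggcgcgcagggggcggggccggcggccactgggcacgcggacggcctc

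Transcripts of the mitochondrial genome were lower in the PFOA females. Of 15 listed, 9 were tested and 9 fell, with a median log2 fold change of −0.78 in females against −0.02 in males, where 0 changed. Without PFOA replicate 1 the count was 2, without PFOA replicate 2 it was 3, and without vehicle replicate 1 it was 5. Their share of the library was 12.7%, 10.7% and 11.1% in the vehicle females, 6.62% and 6.89% in the PFOA females and 9.07% to 12.9% in the males. mt-Rnr2, the large ribosomal RNA, had 3368, 2634 and 2937 CPM in the vehicle livers and 1388 and 1313 CPM in the PFOA livers (−1.14 ± 0.19, adjusted p = 0.0014), and mt-Nd4, a subunit of complex I, had 13365, 11137 and 13664 CPM in the vehicle livers and 6136 and 6695 CPM in the PFOA livers (−0.99 ± 0.17, adjusted p = 0.0018). No member passed the sex term, although mt-Te, a tRNA outside the list, did (its values stand in the closing section). Nuclear genes of oxidative phosphorylation did not follow: 4 of 34 rose (11.8%, beside 10.5% of all genes tested) and 0 fell, with a median of 0.03. The 4 became 0 without PFOA replicate 1 or 2, 1 without vehicle replicate 1, and 2 without vehicle replicate 3 or in the female libraries alone. The 0 lower became 1 without vehicle replicate 2, in the female libraries alone and under DESeq2, RLE size factors, either other filter or the removal of mitochondrially encoded genes. With all mitochondrially encoded genes left out of the counts and library sizes, the other genes gave 2627 calls, 98.7% of the original ones among them.

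**Figure D5:**
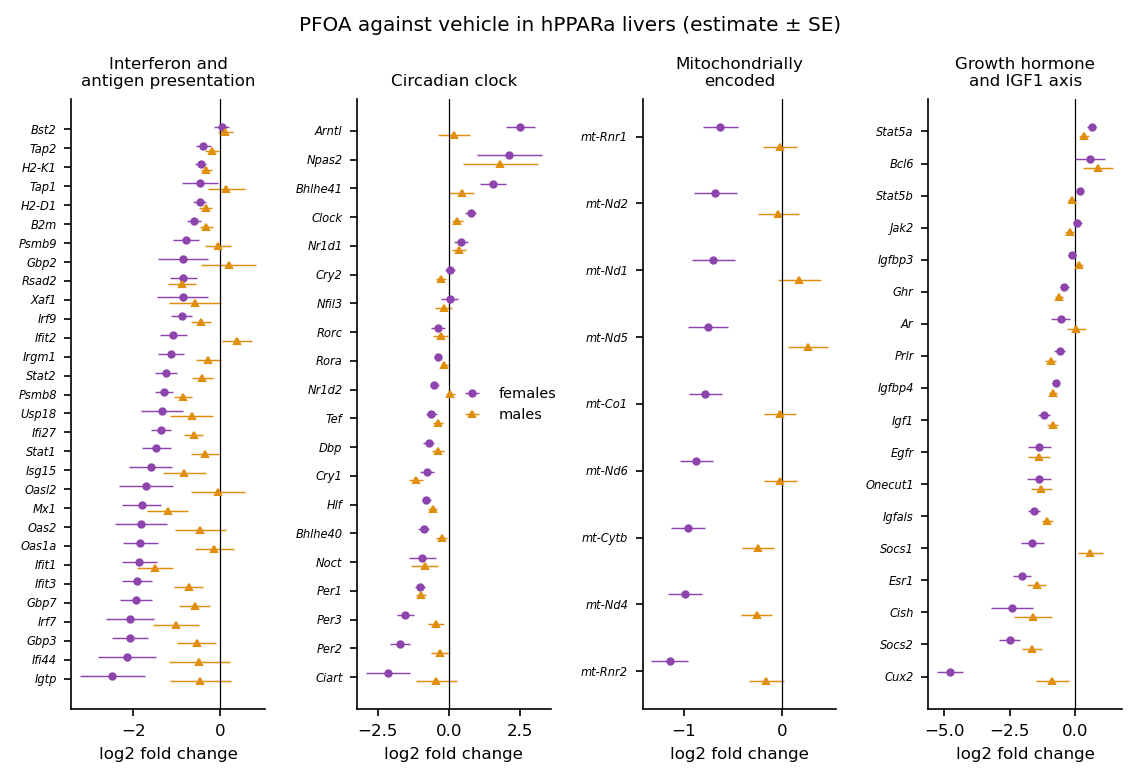
Log2 fold change of PFOA against vehicle, with its SE as bars, for every tested member of 4 gene lists in hPPARa females (purple circles) and males (orange triangles), sorted by the female value. Female estimates lie left of zero for 29 of 30 interferon genes and 9 of 9 mitochondrially encoded genes.

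Several secreted liver proteins fell. Among 22 hepatocyte markers 6 were lower and 0 higher, with a median of −0.32 (2 lower without either PFOA replicate, 3 without vehicle replicate 3, 10 with DESeq2), and their summed level was 191638 to 259640 CPM on vehicle and 147592 to 168248 CPM on PFOA. Ahsg, fetuin-A, had 14232, 13191 and 17444 CPM in the vehicle livers and 6567 and 6824 CPM in the PFOA livers (−1.16 ± 0.17, adjusted p = 0.000653). Ttr, transthyretin, the carrier of thyroid hormone and retinol, had 12176, 10596 and 14922 CPM in the vehicle livers and 6318 and 6684 CPM in the PFOA livers (−0.95 ± 0.17, adjusted p = 0.0021). The liver identity factor Hnf4a did not pass, at 0.15 ± 0.14. Acute-phase genes gave 2 higher and 5 lower of 27, with the 5 at 2 and 1 without PFOA replicates 1 and 2 and at 3 without vehicle replicate 3. Saa2, a serum amyloid, had 20.3, 14.2 and 28.9 CPM in the vehicle livers and 6.23 and 6.88 CPM in the PFOA livers (−1.69 ± 0.28, adjusted p = 0.00236), whereas Il1rn, the interleukin 1 receptor antagonist, had 5.13, 5.60 and 5.31 CPM in the vehicle livers and 29.5 and 16.4 CPM in the PFOA livers (2.10 ± 0.29, adjusted p = 0.00087). Of 35 complement and coagulation genes 33 were tested, and 4 rose and 5 fell (1 and 0 without either PFOA replicate, 1 higher without vehicle replicate 1, and 1 and 2 without vehicle replicate 3). The 4 and 5 were 12.1% and 15.2% of those tested, beside 10.5% and 7.87% of all genes tested. C8a, a subunit of the membrane attack complex, had 205, 230.4 and 222 CPM in the vehicle livers and 395 and 376 CPM in the PFOA livers in females and 763 and 869 CPM on vehicle and 477, 675 and 536 CPM on PFOA in males.

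Of 25 glucose, fructose and insulin response genes 6 fell and 1 rose, with a median of −0.22; the 6 became 1 without PFOA replicate 1 and 3 without replicate 2, and the 1 became 0 without either of them or vehicle replicate 1 2 without vehicle replicate 2 or with DESeq2, and 4 with no filter or the replicate block. Khk, ketohexokinase, the entry enzyme of fructose use, had 574, 722 and 625 CPM in the vehicle livers and 332 and 373 CPM in the PFOA livers (−0.86 ± 0.14, adjusted p = 0.00122). Tkfc, a later enzyme of that route, had 514, 488 and 408 CPM in the vehicle livers and 229 and 284 CPM in the PFOA livers (−0.87 ± 0.15, adjusted p = 0.0019, and 0.0558 without PFOA replicate 1). Pck1, which commits carbon to gluconeogenesis, had 2679, 4282 and 3411 CPM in the vehicle livers and 1605 and 1796 CPM in the PFOA livers (−1.02 ± 0.23, adjusted p = 0.0107, lost at 0.11 and 0.0714 without PFOA replicates 1 and 2). Among amino acid and urea cycle genes 3 of 33 fell (9.09%, beside 7.87% of all genes tested) and 0 rose. The lower count was 6 in the female libraries alone, 5 with DESeq2 or no filter, and smaller without either PFOA replicate.

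Calls among markers of other liver cells stand beside the 10.5% higher and 7.87% lower of all genes tested. Of 18 endothelial markers 3 were higher (16.7%) and 2 lower (11.1%). Their summed level was 669 to 786 CPM on vehicle and 700.3 to 776 CPM on PFOA. Lyve1, a hyaluronan receptor of sinusoidal endothelium, had the largest rise of that list, with 3.02, 2.77 and 3.13 CPM in the vehicle livers and 13.6 and 17.4 CPM in the PFOA livers (2.38 ± 0.29, adjusted p = 0.00023). The other members called were Oit3 and Kdr, which rose (log2 fold changes 0.73 and 0.51), and Fcgr2b and Vwf, which fell (−0.48 and −0.90). Each of these calls was lost without PFOA replicate 2. Of 19 stellate cell and matrix markers 18 were tested, and 2 were higher (11.1%) and 5 lower (27.8%). Their summed level was 643 to 729 CPM on vehicle and 476 to 600.0 CPM on PFOA. Ngfr, a neurotrophin receptor of stellate cells, was 1 of the 2 that rose. It had 3.08, 3.13 and 1.77 CPM in the vehicle livers and 6.34 and 7.32 CPM in the PFOA livers (1.35 ± 0.25, adjusted p = 0.00291). Members that fell included Hand2, Dcn, Des and Ecm1, with log2 fold changes of −0.96, −0.76, −0.98 and −0.60. Their calls were lost without PFOA replicate 1, and those of Des and Ecm1 also without PFOA replicate 2. Cholangiocyte markers gave 1 lower of 8 tested and 11 listed (2 without vehicle replicate 3, with no filter or with the replicate block), at a summed 49.1 to 59.6 CPM and 37.3 to 38.6 CPM. Of 16 neutrophil markers 5 were tested and 1 rose and 1 fell (0 lower without either PFOA replicate, without vehicle replicate 2 or 3 and with the replicate block), with a summed level of 22.1 to 35.9 CPM and 17.3 to 26.3 CPM. S100a8, a calprotectin subunit, had 0.121, 0.241 and 0.272 CPM in the vehicle livers and 6.67 and 3.52 CPM in the PFOA livers (4.56 ± 0.58, adjusted p = 0.000363), while its partner S100a9 had 0.302, 0.482 and 0.408 CPM in the vehicle livers and 0.993 and 0.727 CPM in the PFOA livers (1.10 ± 0.54, adjusted p = 0.17) and the defining granulocyte genes Ly6g, Elane and Mpo were at or near 0. Without PFOA replicate 1 the lower counts were 0 for endothelial, 0 for stellate and 0 for macrophage markers, and without PFOA replicate 2 they were 0, 3 and 0. The higher counts without PFOA replicate 2 were 1 for endothelial and 1 for stellate markers, and lower endothelial counts were 0, 1 and 0 without vehicle replicates 1, 2 and 3. For macrophage markers the lower count was 1, 1 and 4 without vehicle replicates 1, 2 and 3, 4 with no filter and 6 with the replicate block.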

How the data were processed

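Per the labels' protocols, bulk liver RNA was extracted with a Direct-zol kit and sequenced by BGI Americas. The authors deposited gene counts as whole numbers, not normalized. The submitters' processing notes name cutadapt 1.15, edgeR 3.36.0, FastQC 0.11.5, featureCounts 1.6.1, R 4.1.0, STAR 2.5.3 and GRCm39. The sources used here give no annotation or strand setting, so overlapping and antisense genes are uncertain. The table held 53599 gene symbols, 19689 of them without a count in the 10 hPPARa libraries. 0 rows named no gene and 0 columns lacked a sample. The knockout table was not used here.

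The counts were tested here with edgeR 4.0.16 (R 4.3.3): TMM factors (0.911 to 1.03), the default filter by group, 1 model of 4 groups (sex by exposure) on 10 libraries, the robust quasi-likelihood test, and Benjamini-Hochberg adjustment at 0.05. SE is the size of the log2 fold change over the square root of F. CPM use TMM library sizes. Counts of 0 to 3 in a group give a ratio with an exact interval for counts. Between libraries of a group the chi-square per gene was 7.31 for the female PFOA pair and 19.9 to 34.0 for the female vehicle pairs. Male pairs gave 13.3 to 41.8, so the female PFOA pair was the most alike. Counting noise gives about 1, so none was treated as 1 library deposited again. The test was first tried on simulated counts. Alternatives included DESeq2 1.42.0.

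Members and lists (33) were chosen with earlier results of these data known. Named were, among genes past 0.05 with a mean of at least 1 CPM in females and no predicted-gene symbol, the 10 highest, the 10 lowest, up to 6 of each list by adjusted p and the 10 smallest adjusted p by sex, plus a few fixed genes such as Ppara and Cyp7a1. C8a, on 1 of these lists, was also followed by sex. From these the text favours genes whose call held, a choice made after the values were seen. List members that did not pass are given as values, and a few listed genes are counted but not reported here.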

Additional observations from a re-analysis of the deposited data

Results flagged for a closer look

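The response to PFOA in 11 named genes differed between hPPARa females and males by the PFOA by sex term of edgeR's quasi-likelihood test, each with an adjusted p under 0.05. On the log2 scale, female minus male, the difference was 2.47 for Cyp2c29 and 2.18 for Cyp2c67, and both held in all 16 alternatives. For Alas2 it was 2.35, for Arsa 2.12 and for F2r 1.40, genes whose male response did not pass the test. Cyp4a12a had 7.52 and C8a, a complement subunit that rose in females and fell in males, had 1.35 (adjusted p = 0.0306, and up to 0.23 without female PFOA replicate 1).

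For Evc, a ciliary protein, the difference of 1.79 came from the males: females had 12.4, 11.4 and 8.78 CPM in the vehicle livers and 9.76 and 11.6 CPM in the PFOA livers, and males had 8.13 and 8.06 CPM on vehicle and 2.10, 2.33 and 2.44 CPM on PFOA. Fth1-ps, a ferritin pseudogene that can share reads with its parent, had −2.50, with females at 3.81, 3.43 and 4.22 CPM on vehicle and 4.08 and 4.03 CPM on PFOA and males at 0.961 and 0.733 CPM on vehicle and 6.25, 4.30 and 4.81 CPM on PFOA. The mitochondrial glutamate tRNA mt-Te had −1.94, with females at 11.7, 9.997 and 10.8 CPM on vehicle and 5.24 and 6.09 CPM on PFOA and males at 4.68 and 4.20 CPM on vehicle and 10.7, 9.28 and 6.89 CPM on PFOA. It fell in females (log2 fold change −0.93 ± 0.20, adjusted p = 0.00687, and 0.0939 without female PFOA replicate 1) and rose in males. Slc22a27 (−5.02) also fell in females and rose in males. Outside Cyp2c29 and Cyp2c67 each of these calls was lost in at least 1 alternative, in 1 for Alas2 (the replicate block, adjusted p = 0.0515), 3 for F2r, 4 for Arsa, 5 each for Evc, Fth1-ps and mt-Te, 6 for Slc22a27, 7 for C8a and 8 for Cyp4a12a.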

How the results depend on the processing

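For PFOA in females the 2644 calls were 2615 with RLE size factors, 2654 with DESeq2, 3060 without the low-count filter (which moved the median of all genes to −0.11), 2514 with a stricter filter, 2627 without mitochondrially encoded genes and 2598 from the 5 female libraries alone. Leaving out 1 library gave 796 to 3242, with 561 to 1836 higher and 235 to 1406 lower. By sex the 15 calls were 138 with DESeq2 (59 higher and 79 lower) and 323 without the filter (151 and 172); the cause was not tested. Leaving out 1 library gave 4 to 27 by sex, with 3 to 16 higher and 0 to 16 lower. It gave 9 without female vehicle replicate 1, 26 without replicate 3, 7 without male vehicle replicate 2, and 27 and 26 without male PFOA replicates 1 and 2.

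Whether replicate numbers pair the samples was not settled. Deviations from the group means correlated at 0.04 and 0.02 for the 2 same-numbered female pairs. With 2 PFOA libraries their deviations are mirror images of each other, so this check cannot exclude pairing. With the replicate number as a block, females gave 2781 calls, and the sex term 18, of which 8 were higher and 10 lower. Over the named genes, 2728 of the alternative values in females kept direction and side of the threshold, 232 lost the call, 3 gained it and 4 changed sign. All 4 were for Evc, near zero at −0.03 (−0.17 without female vehicle replicate 3): 0.00266 without the filter, and 0.0768, 0.00278 and 0.0869 without female vehicle replicates 1 and 2 and female PFOA replicate 1. By sex 131 held and 44 lost the call. Of 169 named genes called in females, 85 held in every alternative. Genes with few vehicle counts, such as Esm1 and Fitm1, have a fold known only as a bound or within the interval given.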

Other observations

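Some genes with large changes have not been described. Ntrk2, a receptor for brain-derived neurotrophic factor that stands on the female-biased list, had 50.3, 75.0 and 98.2 CPM in the vehicle livers and 2.76 and 4.75 CPM in the PFOA livers, a 19.8-fold fall (log2 fold change −4.31 ± 0.44, adjusted p = 0.000557 by edgeR). The hPPARa males had 61.7 and 81.2 CPM on vehicle and 1.98, 0.614 and 0.95 CPM on PFOA, with vehicle levels inside the female range, and the difference between the sexes did not pass (adjusted p = 0.445). Aldh3b3, a fatty aldehyde dehydrogenase, had 13.2, 8.55 and 12.9 CPM in the vehicle livers and 0.883 and 1.01 CPM in the PFOA livers (−3.60 ± 0.39, adjusted p = 8.76e-05) and was near 0 in every male library. Esm1, endocan, an endothelial proteoglycan, had no count in the 3 vehicle livers and 105 over the 2 PFOA livers. That is at least 46.5-fold higher, taking 3 counts over the vehicle group as the floor (adjusted p = 0.00511). Cela1, an elastase of the pancreas that liver also transcribes, had 15.3, 25.1 and 21.4 CPM in the vehicle livers and 8.22 and 9.34 CPM in the PFOA livers (−1.23 ± 0.21, adjusted p = 0.00162), while the other pancreas genes on its list had at most 1.02 CPM in any female liver.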
